A study of Mus musculus with 4 samples.

Results

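Fibroblastic reticular cells are the mesenchymal scaffold cells of the lymph node, and 10 genes of their identity, adhesion and survival factor programme were followed here. The genes are Pdpn, Pdgfra, Pdgfrb and Thy1, which mark the cells, Vcam1 and Icam1, which bind leukocyte integrins, and the secreted factors Il7, Il15, Kitl and Il6. They were chosen by name, and every probe that the array files assign to one of them was taken, which gave 20 of 41174 probes. Of these, 19 were well above background and entered the tests, and each of the 10 genes kept at least 1 probe among the 21392 genes tested.

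The cells came from wild-type C57BL/6NCrl mice and were the CD45-negative fraction of mesenteric lymph node (mLN), the node of the gut, or of the peripheral lymph node (pLN). CD45 is the surface protein of leukocytes, and its negative fraction holds the stroma: reticular cells, blood and lymphatic endothelium, pericytes and, where the capsule is included, surface mesothelium. Nodes were digested with collagenase, the fraction was separated with magnetic beads, and RNA of both nodes from 2 experiments was hybridised to 1-colour arrays, 1 array per node and experiment. Age, sex, the number of animals per sample and the identity of the peripheral nodes are not given in the sources used here, so p-values measure only the spread between these samples.

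Fibroblastic reticular cells build the collagen conduits along which lymphocytes crawl and secrete the cytokines that keep lymphocytes alive there. Podoplanin at their surface is held in check by CLEC-2 on platelets and dendritic cells, which relaxes the contractile network when a node swells. Interleukin 7 sustains naive T cells, interleukin 15 sustains memory CD8 T cells and natural killer cells, stem cell factor (the product of Kitl) supports KIT-bearing progenitors and mast cells, and interleukin 6 is an inflammatory cytokine that also acts on plasma cells and T cells.

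For 8 of the 10 genes, at least 2 probes entered, and in 7 of these the dimmer probe lay upstream of the brighter one along the gene, by 896 (Icam1) to 34275 (Pdgfra) bases of genome. Pdpn was the exception, its dimmer probe lying 933 bases downstream. Probes at another place of the transcript give a further reading of the same gene. The sequences shown are the upstream probes of 5 genes, which the results below set beside the brighter ones, and the Il15 probe on which its gap between the arrays rests. They are the array's designed sequences, 5′ to 3′ in the sense of the transcript as the coordinate order in the files gives it, with positions on mm8 as the files give them. The Thy1 and Il7 probes span 446 and 1104 bases of genome, more than the 60 bases of the probe, so each crosses an intron.
Thy1, chr9:43797903-43798348: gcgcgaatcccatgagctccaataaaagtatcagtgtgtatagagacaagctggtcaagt
Vcam1, chr3:116118039-116118098: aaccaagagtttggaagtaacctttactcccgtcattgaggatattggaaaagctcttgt
Icam1, chr9:20778248-20778307: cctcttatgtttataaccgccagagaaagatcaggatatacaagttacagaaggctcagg
Il7, chr3:7559196-7560299: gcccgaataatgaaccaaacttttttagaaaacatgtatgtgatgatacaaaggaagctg
Il15, chr8:85230251-85230310: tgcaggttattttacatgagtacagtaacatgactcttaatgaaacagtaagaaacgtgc
Kitl, chr10:99506434-99506493: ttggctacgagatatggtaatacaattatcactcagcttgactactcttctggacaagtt
The Il15 probe is the brighter of its pair, and the other 5 are the dimmer ones. No position within an exon or a UTR is given, since no annotation of that build was used.

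Levels are given as multiples of the array's own 75th percentile of probe signal, so that 1 stands for the brightness that 25% of the probes exceed. The percentile itself ranged from 1686 to 1741 signal units, and the share of probes well above background was between 74.0% and 81.1% on the 4 arrays. Ranks run over 41155 probes by mean log2 signal, with 1 the brightest, and describe the probe, not the abundance of the transcript, because probes differ in how well they bind. Differences are mLN minus pLN on the log2 scale with the standard error (SE) of limma, n = 2 arrays per node. In bulk samples such as these, fewer cells of a type and less RNA per cell cannot be told apart.

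All 4 identity genes were detected in both nodes, and none passed the test between the nodes. The brightest probe among them was that of Thy1, which encodes the glycoprotein CD90 carried by reticular cells and also by T cells. Its brighter probe ranked 979, in the top 2.38% of probes, and read 24.0 and 23.9 in pLN (experiments 1 and 2) and 29.4 and 12.5 in mLN. The mLN arrays were thus the highest and the lowest of the 4, and the nodes overlapped. The difference was −0.32 ± 0.44 (limma adjusted p = 0.822), and it was 0.30 with mLN replicate 2 left out. At the upstream probe the signal was 0.367 and 0.412 in pLN and 0.548 and 0.286 in mLN, again highest in mLN of experiment 1 and lowest in mLN of experiment 2. Of 10 T cell markers, 8 had a positive difference and none passed, with a median of 0.28 in experiment 1 and 0.59 in experiment 2. Their summed signal was 6.66 and 6.19 in pLN and 6.41 and 8.01 in mLN, and their part in the Thy1 signal was not tested.

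Pdgfra, which encodes the PDGF receptor alpha of fibroblasts, ranked 2385 (top 5.80%). Its brighter probe read 7.89 and 8.19 in pLN and 8.63 and 8.79 in mLN. Both mLN arrays lay above both pLN arrays, by a small step. The difference was 0.12 ± 0.13 (limma adjusted p = 0.784; −0.18 with normexp background correction), with a 95% confidence interval of 0.844-fold to 1.39-fold, the narrowest range of the identity genes. The upstream Pdgfra probe was dim, at 0.0913 and 0.136 in pLN and 0.158 and 0.0828 in mLN, and its nodes overlapped.

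Pdgfrb, which encodes the PDGF receptor beta of reticular cells and pericytes, ranked 2412 (top 5.86%) with its single probe. It read 7.02 and 10.3 in pLN and 6.72 and 9.66 in mLN. The experiments separated the arrays and the nodes did not: both arrays of experiment 2 lay above both of experiment 1. The node difference was −0.08 ± 0.29 (limma adjusted p = 0.949), turning to 0.19 and 0.20 with mLN replicate 1 or pLN replicate 2 left out. Experiment 2 was higher by 0.54 ± 0.14 (limma adjusted p = 0.518 in the fit with experiment as a block). The summed signal of 10 smooth muscle and pericyte markers was 132 and 156 in pLN and 201 and 219 in mLN. Of this, Acta2 made up 50.9 and 59.3 in pLN and 86.5 and 78.8 in mLN. Tagln made up 41.3 and 53.0 in pLN and 72.1 and 79.5 in mLN. Of the 10 markers, 9 had a positive node difference and 1, Rgs5, a negative one (−0.66 ± 0.23). Their experiment difference had a median of 0.21 and was negative for Myh11, Cnn1 and Cspg4. The part of these cells in the Pdgfrb signal was not tested.

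Pdpn, which encodes podoplanin, the surface mucin that also marks lymphatic endothelium and mesothelium, was the dimmest of the identity genes at its brighter probe (rank 8136, top 19.8%). The signal was 1.48 and 1.63 in pLN and 1.76 and 1.43 in mLN. As with Thy1, mLN held both the highest and the lowest array. The mLN over pLN ratio was 1.19 in experiment 1 and 0.874 in experiment 2, and the difference was 0.03 ± 0.17 (limma adjusted p = 0.968; −0.04 and −0.12 with pLN or mLN replicate 1 left out, and −0.06 with normexp). Pdpn's other probe read 0.721 and 0.877 in pLN and 0.905 and 0.672 in mLN, in the same order of arrays. The markers of other cells that carry podoplanin did not move together. Summed mesothelium markers were 31.6 and 32.8 in pLN and 70.8 and 53.9 in mLN. Of this, Gpm6a made up 21.8 and 21.0 in pLN and 23.4 and 19.3 in mLN. Of the 10 mesothelium markers, 8 had a positive difference and 2 a negative one. Among the 8, Upk3b read 0.0106 and 0.0117 in pLN and 9.27 and 8.27 in mLN. Summed lymphatic endothelium markers were 67.0 and 53.2 in pLN and 67.3 and 41.9 in mLN. Of this, Lyve1 made up 12.6 and 12.3 in pLN and 28.7 and 23.0 in mLN. Of the 7 lymphatic markers, 5 had a negative difference and 2 a positive one (median −0.76). The part of these cells in the Pdpn signal was not tested.

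**Figure D1:**
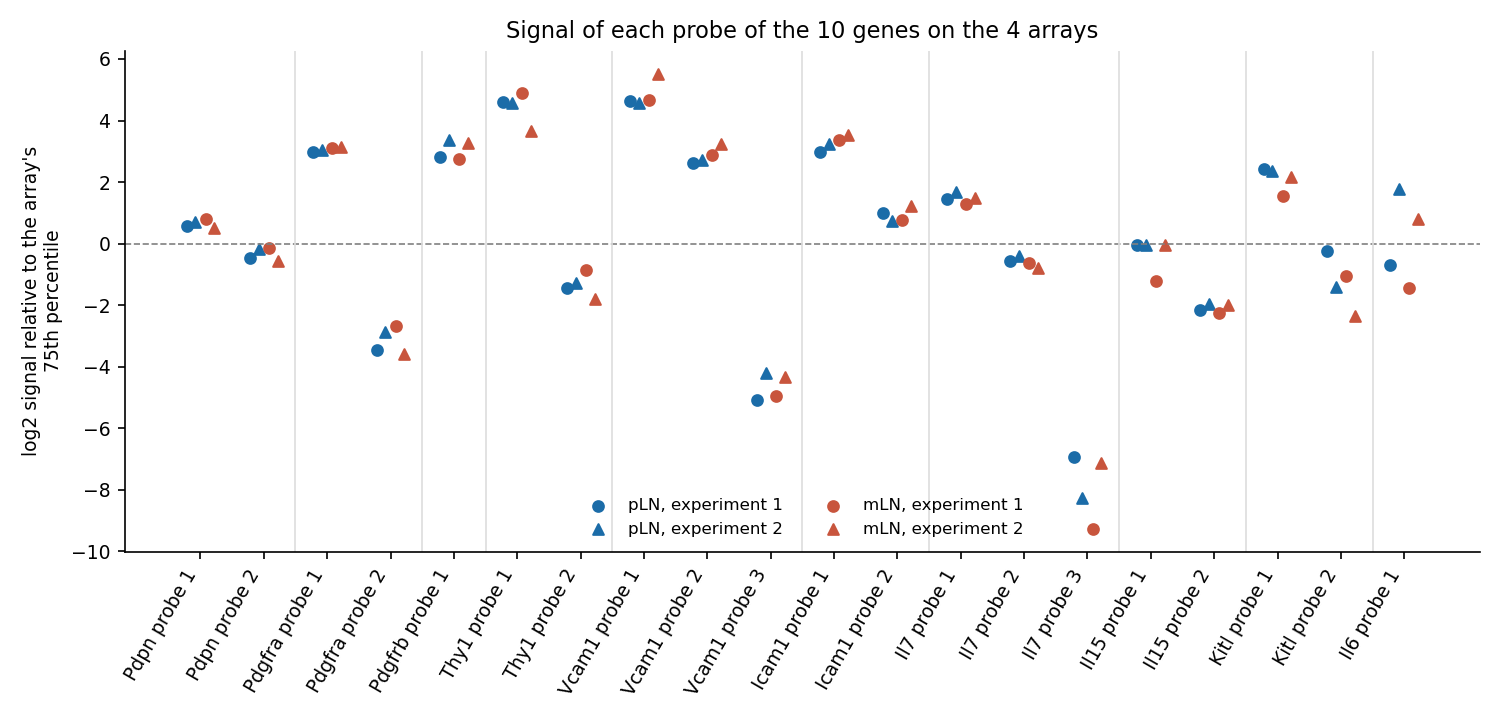
Signal of all 20 probes of the 10 genes on each array, as log2 relative to the array's 75th percentile (dashed line at 0); circles are experiment 1, triangles experiment 2, blue pLN and red mLN. The Il6 arrays split by experiment rather than by node, the Thy1 and Pdpn probes have mLN arrays at both ends, and the Il7 probe at the bottom was not well above background on any array.

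Both adhesion genes read higher on both mLN arrays than on both pLN arrays at the brighter probe, without passing the test. Of all genes, 20.6% had non-overlapping arrays with mLN higher. Vcam1 encodes VCAM-1, the ligand of the integrin alpha 4 beta 1 on lymphocytes, and is made by reticular cells and by activated endothelium. Its brighter probe was the brightest of all 20 (rank 757, top 1.84%). It read 24.6 and 23.5 in pLN and 25.6 and 46.1 in mLN. The arrays of the nodes did not overlap, but 3 of the 4 lay close together and the array of mLN in experiment 2 stood above them. The ratio of mLN over pLN was 1.04 in experiment 1 and 1.96 in experiment 2. The difference was 0.52 ± 0.32 (limma adjusted p = 0.570; 0.22 with normexp), and with 1 array left out it ranged from 0.09 (without mLN replicate 2) to 0.94 (without mLN replicate 1).

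The upstream Vcam1 probe had a smaller spread. It read 6.13 and 6.52 in pLN and 7.40 and 9.43 in mLN, in the same order of nodes, with a difference of 0.40 ± 0.18 (limma adjusted p = 0.466 over all probes, of which 0.734% were called and none of the 19 probes of the 10 genes). A further Vcam1 probe between them, designed on another transcript record, read only 0.0297 and 0.0538 in pLN and 0.0327 and 0.0498 in mLN and split by experiment.

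Icam1 encodes ICAM-1, the ligand of the integrins LFA-1 and Mac-1. Its brighter probe (rank 2096, top 5.09%) read 7.88 and 9.39 in pLN and 10.2 and 11.6 in mLN. No mLN array fell to the level of a pLN array, and the step was alike in both experiments, with ratios of 1.30 and 1.24. The difference was 0.34 ± 0.17 (limma adjusted p = 0.473; 0.027 with normexp), with a 95% confidence interval of 0.924-fold to 1.73-fold. At the upstream Icam1 probe the signal was 1.98 and 1.66 in pLN and 1.72 and 2.36 in mLN. There the nodes overlapped, and the difference was 0.15 ± 0.22.

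Blood endothelium also carries both adhesion molecules. Of its 10 markers, 9 had a negative difference, against 55.7% of all genes, and none passed. Their summed signal was 351 and 335 in pLN and 271 and 216 in mLN. Of this, Cldn5 made up 144 and 137 in pLN and 119 and 62.8 in mLN. The part of endothelium in the Vcam1 and Icam1 signal was not tested.

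The survival factors all had negative differences, as 55.7% of all genes had, and none passed the test. Kitl encodes stem cell factor. Its brighter probe (rank 4143, top 10.1%) read 5.32 and 5.19 in pLN and 2.94 and 4.45 in mLN. Both mLN arrays lay below both pLN arrays, and the array of mLN in experiment 1 was the lowest. The difference was −0.54 ± 0.24 (limma adjusted p = 0.430), which is 1.45-fold lower in mLN, with a 95% confidence interval from 2.29-fold lower to 1.08-fold higher. It ranged from −0.84 to −0.24 with 1 array left out, the latter without mLN replicate 1.

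At the upstream Kitl probe the signal was 0.855 and 0.380 in pLN and 0.487 and 0.194 in mLN. Here mLN was lower within each experiment, by 1.75-fold and 1.95-fold, and experiment 2 was lower than experiment 1 within each node. The difference was −0.89 ± 0.61, and with experiment as a block the SE fell to 0.16 (limma adjusted p = 0.135 over all probes). Between the experiments this probe fell by 1.25 ± 0.16, whereas the brighter Kitl probe differed by 0.28 ± 0.22 in the other direction.

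Il7, the T cell survival factor of the reticular network, had a nearly level profile. Its brighter probe (rank 5755, top 14.0%) read 2.74 and 3.19 in pLN and 2.45 and 2.81 in mLN, with overlapping nodes. Within each experiment mLN was lower, with ratios of 0.894 and 0.881, and the difference was −0.17 ± 0.16 (limma adjusted p = 0.729). The upstream Il7 probe read 0.683 and 0.753 in pLN and 0.646 and 0.580 in mLN, with both mLN arrays lowest (−0.23 ± 0.16). Another Il7 probe was not well above background on any array and was not tested.

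Il15 encodes interleukin 15, which stromal and myeloid cells present on the IL-15 receptor alpha chain. Its brighter probe ranked lowest among the brightest probes of the 10 genes (rank 11301, top 27.5%). It read 0.961 and 0.978 in pLN and 0.431 and 0.977 in mLN. A single array, mLN of experiment 1, stood below the other 3, which lay close together. The difference was −0.58 ± 0.42 (limma adjusted p = 0.636) and 0.01 with that array left out. The other Il15 probe read 0.224 and 0.256 in pLN and 0.208 and 0.253 in mLN, a difference of −0.06 ± 0.18, so the gap in experiment 1 was 2.23-fold at one probe and 1.08-fold at the other.

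Il6, which encodes interleukin 6, varied more between experiments than any other of the 10 genes. Its single probe (rank 9888, top 24.0%) read 0.619 and 3.40 in pLN and 0.369 and 1.75 in mLN. Both arrays of experiment 2 lay above both of experiment 1, and within each experiment mLN was the lower node, by 1.68-fold and 1.94-fold. On single arrays its rank ran from 5031 to 15006. The node difference was −0.85 ± 1.14 (limma adjusted p = 0.818), and it was 0.27 and 0.38 with mLN replicate 1 or pLN replicate 2 left out.

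With experiment as a block, the SE of the Il6 node difference fell to 0.15 and the adjusted p to 0.115 (limma). Il6 was then the only one of the 10 genes with an unadjusted p under 0.05, against 17.6% of all genes. Experiment 2 was higher than experiment 1 by 2.35 ± 0.15 on the log2 scale (limma adjusted p = 0.492), 5.49-fold in pLN and 4.74-fold in mLN. None of the other 9 genes differed 2-fold or more the same way in both nodes between the experiments, against 0.823% of all genes, and 0.014% of all genes were 4-fold or more higher in both nodes as Il6 was. No gene of the array passed the adjusted test for the experiment (0.0%), and 9.1% had an unadjusted p under 0.05, among them Il6 and Pdgfrb.

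**Figure D2:**
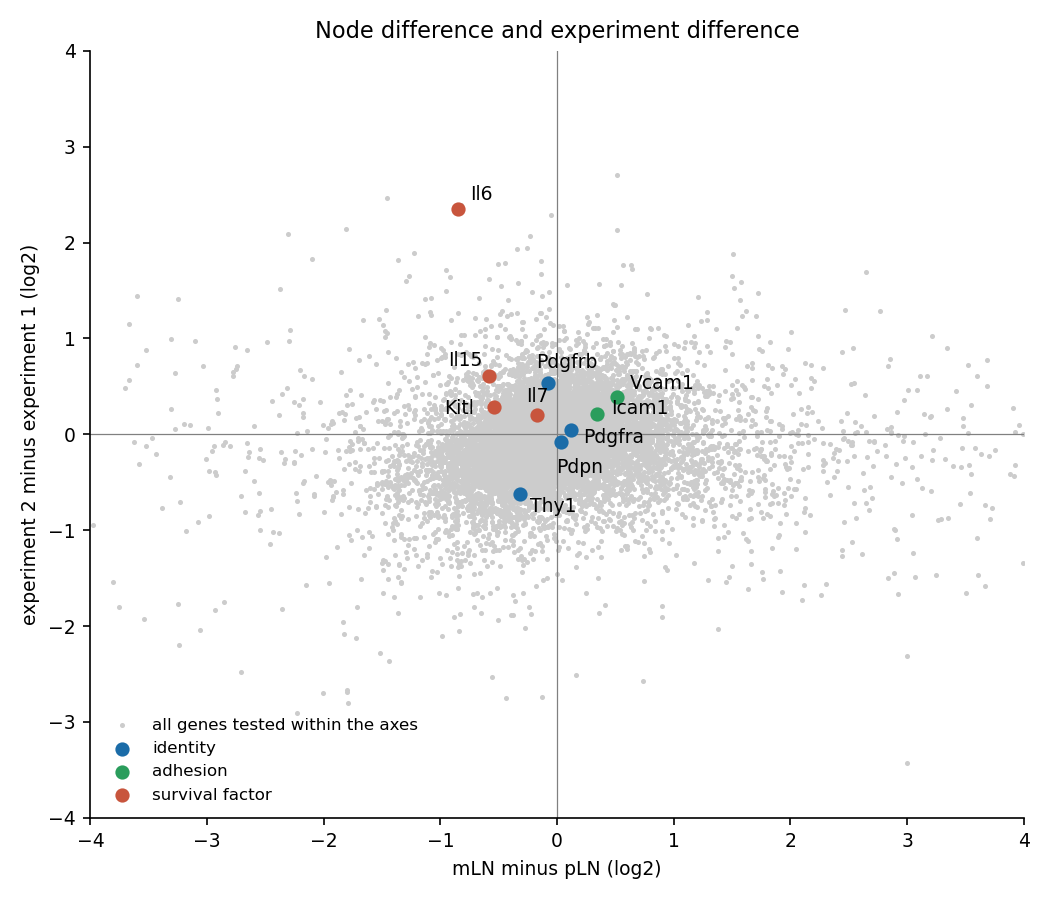
Node difference (x axis, mLN minus pLN, log2) against experiment difference (y axis, experiment 2 minus 1, log2) for the 10 genes, coloured by role, over all genes within the axes (grey). Il6 stands apart on the experiment axis at 2.35, and the other 9 genes lie between −0.62 (Thy1) and 0.60 (Il15).

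Counted over the 10 genes, none was called at a limma adjusted p under 0.05, where 1.05% of all genes were (0.771% higher and 0.276% lower in mLN). None had an unadjusted p under 0.05 either, against 14.7% of all genes, and with experiment as a block none was called, against 1.56%. The smallest difference among the called genes was 2.51-fold, and the mean difference of each of the 10 was smaller than that. The absolute difference had a median of 0.33 over the 10 genes and 0.19 over all genes.

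The arrays of the nodes did not overlap in 4 of the 10 genes, against 45.6% of all genes: Pdgfra, Vcam1 and Icam1 were higher in mLN (20.6% of all genes) and Kitl was lower (25.1%). Both experiments gave the same sign in 8 of the 10, all but Pdpn and Thy1, against 63.0%. None of the 10 differed 2-fold or more the same way in both experiments, against 4.45%. In the 8 genes with several tested probes, the probe differences shared a sign in 6, again all but Pdpn and Thy1.

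**Figure D3:**
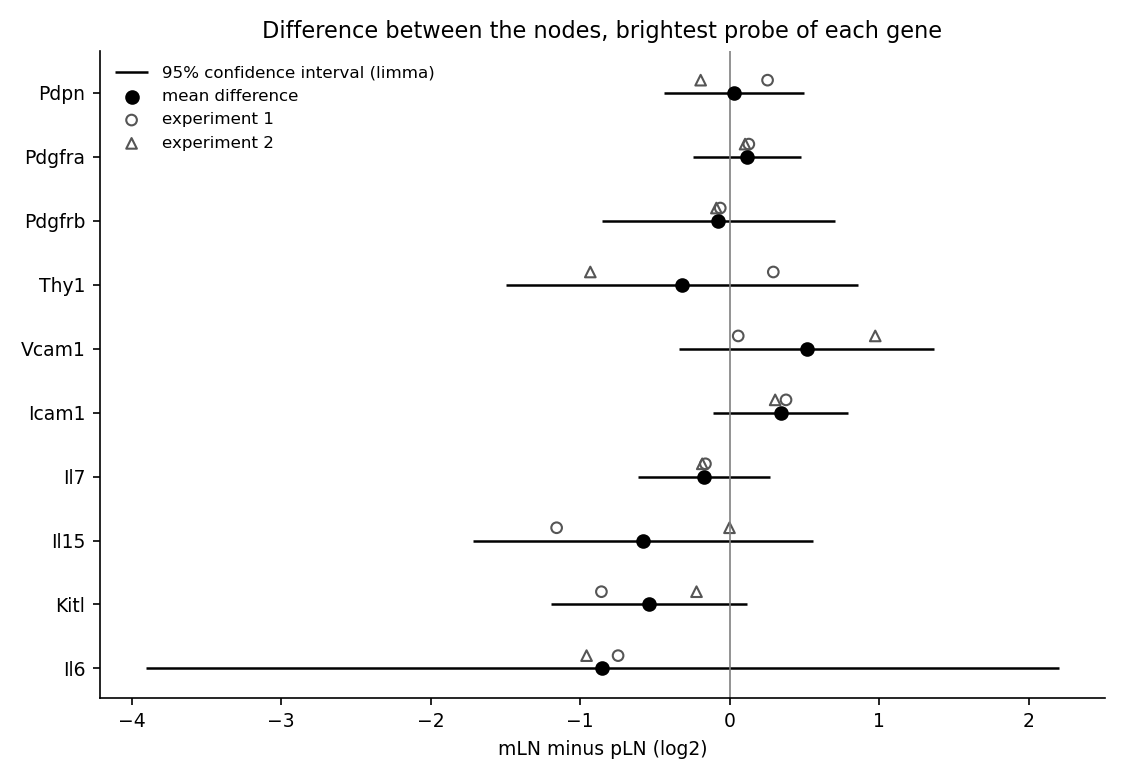
Difference mLN minus pLN (log2) of the brightest probe of each gene: filled points are means of 2 arrays per node, lines 95% confidence intervals from limma, open circles and triangles the differences within experiments 1 and 2. Every interval includes 0, the narrowest belongs to Pdgfra and the widest to Il6.

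Among 20 ligands, receptors and integrins that pair with the 10 gene products, 1 was called higher in mLN and none lower, with a median difference of 0.01 against −0.03 over all genes. The called gene was Clec1b, which encodes CLEC-2, the receptor of podoplanin. Its single probe read 0.324 and 0.391 in pLN and 2.99 and 3.32 in mLN, with close replicates and nodes far apart. That is 8.86-fold higher in mLN (3.15 ± 0.17, limma adjusted p = 0.0127, and 0.0171 with experiment as a block). With 1 array left out the Clec1b difference stayed between 3.01 and 3.28, but the adjusted p rose to 0.102 and 0.108 without pLN replicate 1 or 2, and to 0.689 with normexp background correction, under which no gene of the array was called.

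Beside Clec1b, the myeloid marker Mrc1, which encodes the mannose receptor, was 4.13-fold higher in mLN (2.05 ± 0.20, limma adjusted p = 0.0365). This call was lost in 7 of 13 alternatives, with an adjusted p of 0.0539 with experiment as a block, 0.105 without the filter on dim probes and 0.689 with normexp. Lyve1, a receptor of lymphatic endothelium and some macrophages, differed by 1.04 ± 0.17 without passing (limma adjusted p = 0.105). Of the 10 myeloid markers, 7 had a positive difference (median 0.41). Their summed signal was 14.2 and 10.1 in pLN and 11.3 and 10.1 in mLN, of which Lyz2, the brightest probe, made up 9.59 and 5.21 in pLN and 5.27 and 3.39 in mLN. The part of myeloid cells in the Clec1b difference was not tested. The partner with the next smallest p was Pdgfb, which encodes a ligand of the PDGF receptors made by endothelium (−0.94 ± 0.22, limma adjusted p = 0.169).

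Of 25 other reticular cell genes tested, none was called and 21 had a positive difference (median 0.22), against 44.3% of all genes. With experiment as a block 2 were called, Dpp4 and Tnfsf11. Lum, which encodes the collagen-binding proteoglycan lumican, read 73.4 and 76.2 in pLN and 131 and 140 in mLN (0.86 ± 0.14, limma adjusted p = 0.103). Dpp4, which encodes the peptidase CD26 of adventitial fibroblasts, read 1.03 and 0.637 in pLN and 3.65 and 2.43 in mLN. Its nodes did not overlap, and the difference of 1.88 ± 0.33 had a limma adjusted p of 0.117, and of 0.0330 with experiment as a block. Tnfsf11, which encodes RANKL and is named here for its call under the block, read 0.403 and 0.826 in pLN and 1.86 and 5.46 in mLN. It had the largest difference of the list, 5.52-fold (2.47 ± 0.65, limma adjusted p = 0.205, and 0.0352 with the block).

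None of 19 other niche factors and survival cytokines was called (median −0.11). Ctf1, which encodes the IL-6 family cytokine cardiotrophin 1, had the smallest p, with 0.201 and 0.173 in pLN and 0.488 and 0.469 in mLN (1.36 ± 0.15, limma adjusted p = 0.0514, and 0.0279 to 0.689 over the alternatives). Il33, which encodes an alarmin stored in the nuclei of stromal cells, read 10.9 and 13.5 in pLN and 20.9 and 25.1 in mLN (0.92 ± 0.19, limma adjusted p = 0.143). Both were named for their small p and had non-overlapping nodes with mLN higher, as 20.6% of all genes had. Of the 19 genes of this list, 10 had a negative and 9 a positive difference. Some were non-overlapping with mLN lower, as Kitl was at its brighter probe and as 25.1% of all genes were.

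Among 21 other adhesion molecules none was called (median −0.22), and those with the smallest p were Icam4 (1.11 ± 0.16, limma adjusted p = 0.0875) and Cadm3 (1.10 ± 0.20). In lymphotoxin and NF-kB signalling, the pathway that matures reticular cells and drives Vcam1 and Icam1, none of 21 genes was called (median −0.12, 16 negative). Tnfrsf11a, which encodes the receptor RANK, differed by −0.87 ± 0.19 (limma adjusted p = 0.151) and the adaptor gene Traf2 by −0.43 ± 0.15. Of 14 genes of JAK and STAT signalling, which relays IL-7, IL-15 and IL-6, none was called (median −0.12), and the smallest p values were those of the kinase genes Jak3 (−0.50 ± 0.15) and Tyk2 (−0.60 ± 0.26).

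**Figure D4:**
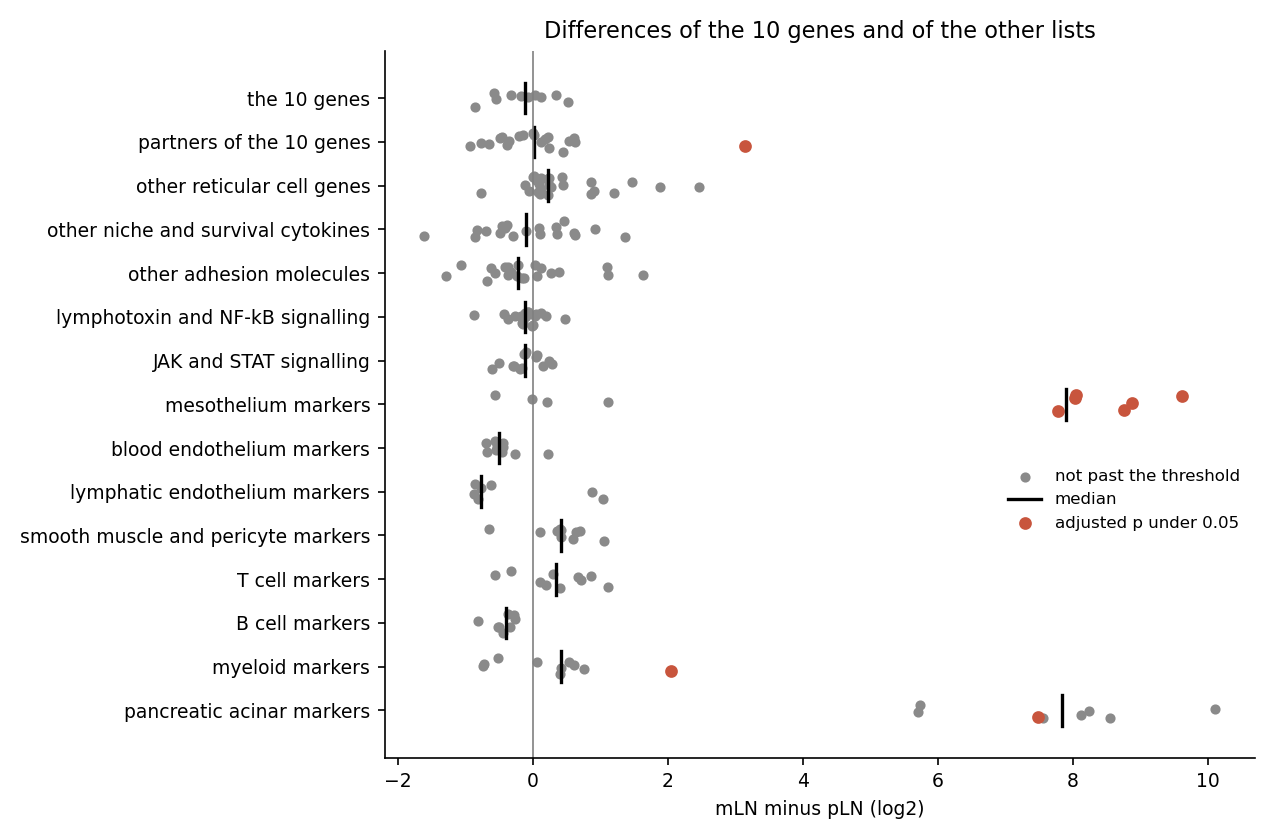
Difference mLN minus pLN (log2) of every tested gene in each list, with the list median as a black bar and genes past a limma adjusted p of 0.05 in red. The 10 genes lie between −0.85 and 0.52, Clec1b stands alone among their partners at 3.15, and 6 of 10 mesothelium markers and all 8 pancreatic acinar markers lie above 5.

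Marker lists of other cells that the fraction could hold were measured beside these results. Of 10 mesothelium markers, 6 were called higher in mLN, among them Upk3b (786-fold, 9.62 ± 0.15), Msln (470-fold), Upk1b (at least 309-fold) and Bnc1 (at least 62.5-fold), the bounds being set against the lowest signal well above background in pLN. That lowest signal was −6.97 and −6.71 on the log2 scale. Upk3b in pLN was near it, at −6.56 and −6.42, as was Msln in pLN of experiment 2, at −6.54. With normexp the log2 differences were 7.24 for Upk3b and 6.98 for Msln, so these folds depend on the background correction. Of the 6, 4 entered the test only through mLN, where they were high, and 2 were called when probes had to be well above background on all 4 arrays. Of 8 pancreatic acinar markers, all were higher on both mLN arrays and 1 was called, Amy2a5 (at least 53.1-fold), which also entered only through mLN, so that the filter on all 4 arrays left 0 calls. With experiment as a block 4 of the 8 were called, among them Cel, 53.0-fold higher (limma adjusted p = 0.0625, and 0.0150 with the block). Their summed signal was 21.2 and 1.19 in pLN and 938 and 342 in mLN. Leukocyte markers were also above background in this CD45-negative fraction: 10 T cell, 7 of 8 B cell and 10 myeloid markers on all 4 arrays. A marker was counted if at least 1 of its probes passed on all 4 arrays. Of all probes, 74.0% to 81.1% were well above background on a single array, a share not directly comparable with that count. Some of the leukocyte markers were dim, such as Cd4 (0.0387 and 0.0405 in pLN, 0.0408 and 0.0444 in mLN). The summed B cell signal was 5.69 and 4.34 in pLN and 3.29 and 4.33 in mLN. None of the 10 T cell, 8 B cell, 10 smooth muscle and pericyte, 10 blood endothelium or 7 lymphatic endothelium markers was called. The smallest p in these lists belonged to Cd8a (1.11 ± 0.18) and Trat1 (0.66 ± 0.15), Cd79b (−0.44 ± 0.22) and Pax5 (−0.81 ± 0.36), Acta2 (0.59 ± 0.16) and Tagln (0.69 ± 0.19), Emcn (−0.54 ± 0.14) and Cdh5 (−0.56 ± 0.17), and Lyve1 and Prox1 (−0.85 ± 0.25).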

How the data were processed

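The deposited intensity values came from Agilent Feature Extraction 9.5.3.1 (submitters' processing notes), which subtracted background and removed spatial trends, per the file headers. Beside them stand other deposited columns that flag spots well above background, saturated or outlying. Per the labels' protocols, total RNA was amplified to cRNA and coupled to a fluorescent dye. All 4 arrays lay on 1 slide and were scanned once.

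From these intensities, control and outlier spots were left out, spots of a probe averaged, log2 taken and each array's 75th percentile subtracted. Probes entered if a node had them well above background on both its arrays (31883 of 41174), and the brightest entering probe stood for its gene (21392 genes). Names came from RefSeq tables through 24367 accessions, 6307 symbols and 2425 synonyms, and 8075 probes kept the files' name.

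limma 3.58.1 (R 4.3.3) compared the nodes, with Benjamini-Hochberg adjustment over all genes and a threshold of 0.05, because an exact permutation of 2 against 2 arrays cannot go below 0.333. A fit per probe adjusted over all entering probes. The labels number the experiments, which pair an mLN with a pLN sample of 1 experiment (deviations correlated with r = 0.246 across genes). Experiment was fitted as a block in an alternative, and its experiment term was read after the data had been seen. Named genes were all 10 members and, per list, those past the threshold (at most 4, by size), filled up to 2 by smallest p. Members and the 14 lists were chosen with earlier results of these data known. The limma fit was tested on simulated data. Also tried were normexp background correction, median and quantile scaling, other filters, the mean of probes, an intensity trend, each array left out, and the deposited value table. Its intensity values are on a linear scale with a floor of 15. Their medians were 169, 172, 167 and 161 for pLN 1, mLN 1, pLN 2 and mLN 2. Above the floor, 99.8% to 99.9% of values equalled the processed signal times 1 factor per array within 1%. The factors were 0.865, 0.862, 0.890 and 0.867 in the same order, a relation the labels do not state. The precision is limited by the number of arrays.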

Additional observations from a re-analysis of the deposited data

How the results depend on the processing

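None of the 10 genes was called under any of the 13 alternatives, and of 130 differences over genes and alternatives 120 kept their direction. Part of these could not turn. The variance trend and the replicate block leave a difference unchanged by construction, and the filters on dim probes kept the same brightest probe of each gene. The 10 that turned came with normexp or with 1 array left out. With normexp background correction, Pdpn turned to −0.064, Pdgfra to −0.18, Pax5 to 1.46 and Tyk2 to 0.11, and the median over the 10 genes moved from −0.12 to −0.36, while the median over all genes moved from −0.03 to 0.38. With 1 array left out, ranges that crossed 0 were those of Pdpn (−0.12 to 0.18), Pdgfrb (−0.35 to 0.20), Thy1 (−0.94 to 0.30), Il15 (−1.17 to 0.012), Il6 (−2.08 to 0.38) and the median (−0.30 to 0.12). Over all genes, 224 were called, against 0 with normexp, 354 with median scaling, 44 without the filter on dim probes, 440 with a variance trend on intensity, and 0 to 185 with 1 array left out (0 without either pLN array). The replicate block gave 333 calls and called none of the 10 genes, and the cause of these shifts was not tested. A slide block was not run because all arrays lay on 1 slide. The 19 tested probes of the 10 genes were well above background on all 4 arrays, and the number of arrays limits the precision.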

Other observations

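Il6 was 1 of 3 genes, of 21392, that read at least 4-fold higher in experiment 2 than in experiment 1 in both nodes (0.014%); the threshold was chosen after the values were seen. The other 2 were Ptgs2, which encodes the inducible prostaglandin synthase COX-2, with 4.84-fold in pLN and 4.94-fold in mLN, and Ccl7, a monocyte chemokine, with 4.24-fold and 4.15-fold. The node differences of both were small against their spread, −0.05 for Ptgs2 and −0.23 for Ccl7 (limma adjusted p = 0.992 and 0.955). Only 41 genes (0.192%) differed more between the experiments than Il6, in either direction.

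Some genes of the lists, picked for their experiment values and so given with no test, also read higher in experiment 2 in both nodes. Others read lower there in both nodes, such as Pi16 (4.24 and 1.96 in pLN, 15.3 and 4.19 in mLN). The median experiment difference was 0.08 in JAK and STAT signalling, 0.11 in lymphotoxin and NF-kB signalling and −0.01 in other adhesion molecules. Socs3, the feedback inhibitor of IL-6 signalling, read 19.0 and 40.6 in pLN and 19.2 and 34.2 in mLN. Nfkbia, the inhibitor induced by NF-kB, read 113 and 162 in pLN and 99.8 and 159 in mLN. The endothelial selectin gene Sele read 0.366 and 0.777 in pLN and 0.105 and 0.452 in mLN. Tnfsf11, described above, was also higher in experiment 2 in both nodes. For Vcam1 and Icam1, the adhesion genes above, the experiment difference was 0.39 ± 0.28 and 0.22 ± 0.14. At its brighter probe Vcam1 was higher in experiment 2 in mLN only (−0.07 in pLN and 0.85 in mLN).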
